A study of Homo sapiens with 12 samples.

Results

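The D-type cyclins, their partner kinases, the inhibitors p21 and p16INK4a and the pocket proteins were followed as 10 genes in 2 liver cancer cell lines. The genes are CCND1, CCND2, CCND3, CDK4, CDK6, CDKN1A, CDKN2A, RB1, RBL1 and RBL2, chosen by symbol for their place in the pathway. All 10 were matched to Ensembl identifiers among the 60664 of the deposited table. Of these, 9 were above 0 in at least 1 library, and 7 averaged at least 1 TPM, a level scaled by transcript length and by the library's total, over the 12 libraries, which was the limit for the test across genes. Huh-7 is an established human hepatoma line, and MHCC-97H is an established human hepatoma line derived for its high metastatic potential. Each line was transfected with si-NC, a control small interfering RNA, or with si-CENPU, one against the kinetochore gene CENPU, with 3 samples in each of the 4 groups. The labels give the genotype of the si-NC samples as WT and that of the others as CENPU knockdown. All groups were grown in the same DMEM medium with fetal bovine serum. No label says that the 3 samples of a group were separate cultures, so each p-value reflects only how far these samples spread, and that spread may be technical. TPM keeps no sequencing depth, and the depth behind each value is therefore unknown.

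The pathway decides whether a cell in G1 enters S phase. D cyclins are made in response to growth signals and activate CDK4 and CDK6, which phosphorylate the pocket proteins RB1, RBL1 and RBL2 and so release E2F transcription factors from repression. INK4 proteins such as p16INK4a block CDK4 and CDK6, the CIP/KIP protein p21 binds cyclin-CDK complexes, and liver tumours often carry changes in this circuit.

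A few facts of the series bear on every value below. CENPU was at 0.56, 0.84 and 0.53 TPM with si-NC and at 0.17, 0.11 and 0.45 TPM with si-CENPU in Huh-7, and at 1.17, 0.83 and 0.89 against 0.22, 0.45 and 0.24 TPM in MHCC-97H. The si-CENPU libraries were below the si-NC libraries in both lines, with no overlap. The Huh-7 si-NC replicate 1 library stood slightly apart, with a mean correlation of 0.965 with the other libraries of its line, against 0.975 to 0.978 for the other Huh-7 libraries. The labels call both lines hepatoma cells and give hepatocellular carcinoma as the tissue. The summed level of 8 hepatocyte markers ran from 6551.2 to 7490.09 TPM in Huh-7 and from 0.66 to 1.65 TPM in MHCC-97H, where 7 of the 8 averaged under 0.5 TPM and APOB and FOXA2 were listed at 0. Hepatocyte identity was therefore visible in Huh-7 and not in MHCC-97H. The summed biliary markers ran from 190.98 to 229.48 TPM in Huh-7 (mostly KRT19) and from 510.98 to 595.14 TPM in MHCC-97H (mostly KRT7). Only 1 of the 4, KRT7, had the higher mean in MHCC-97H, while KRT19, SOX9 and EPCAM had the higher mean in Huh-7. The leukocyte markers ran from 47.3 to 72.32 against 15.72 to 19.44 TPM. That sum was mostly CD68 and LYZ in Huh-7 and CD68 in MHCC-97H, and CD3E and CD79A did not exceed 0.45 TPM. The fibroblast markers ran from 0.77 to 1.59 against 2.31 to 4.3 TPM, and the endothelial markers did not exceed 0.68 TPM in any library. The part of these marker differences in the differences between lines was not tested. Several genes that dividing cells use were at or near 0 in Huh-7, among them CDK2 (0 to 0.02 TPM) and PCNA (0.01 to 0.23 TPM). So were COX7C, a nuclear-encoded respiratory chain gene on chromosome 5 (0 to 0.21 TPM), and the apoptosis gene BAX (0 to 0.2 TPM). MT-CO2, encoded in the mitochondrial genome, ran from 0 to 0.04 TPM in Huh-7 and from 6936.27 to 10056.22 TPM in MHCC-97H. An exact 0 in this kind of table can be a failed estimate, and so can a value near 0. Members at such levels are therefore given library by library, and a 0 is only said to be listed at 0. Whether the near-zero Huh-7 values of the members are low expression or failed estimates was not tested.

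**Figure D1:**
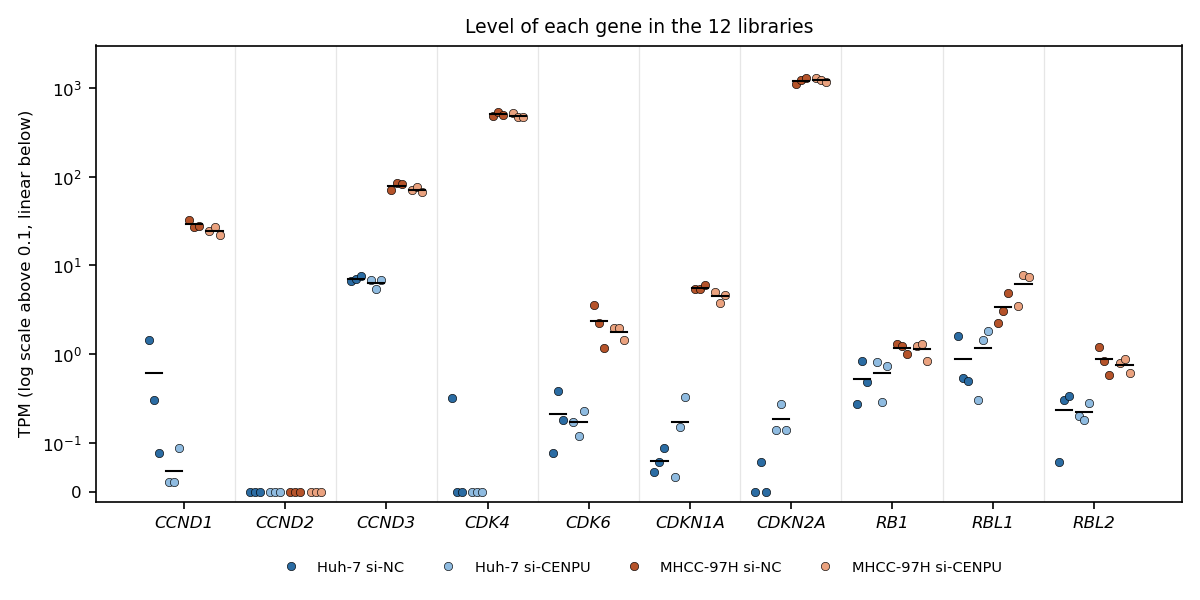
TPM of each of the 10 genes (vertical axis, logarithmic above 0.1 and linear below) in the 12 libraries, coloured by line and siRNA, with a bar at the mean of a group where no library is 0. CCND2 lies at 0 throughout, and CDK4 and CDKN2A lie at or above 467.91 TPM in MHCC-97H and below 0.5 TPM in Huh-7.

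Among the D cyclins, CCND3 was the most abundant in both lines and CCND2 was listed at 0 in all 12 libraries. CCND3 (ENSG00000112576, chromosome 6: 41934933 to 42050357 on GRCh38, minus strand) stood at 6.67, 6.93 and 7.56 TPM with si-NC and at 6.81, 5.34 and 6.9 TPM with si-CENPU in Huh-7. The MHCC-97H levels were 71.16, 84.88 and 81.53 TPM with si-NC, against 70.87, 76.11 and 66.71 TPM after si-CENPU. The siRNA groups overlapped within each line, and no MHCC-97H library came near a Huh-7 library. In bulk samples like these, fewer expressing cells and less RNA per cell cannot be told apart.

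CCND1 (ENSG00000110092, chromosome 11: 69641087 to 69654474, plus strand), the D cyclin most often tied to mitogen and Wnt signalling, was the other D cyclin of MHCC-97H. There it measured 32.22, 27.14 and 27.88 TPM under si-NC, against 24.24, 27.33 and 22.09 TPM under si-CENPU. In Huh-7 it was near 0, at 1.43, 0.3 and 0.08 TPM with si-NC and at 0.02, 0.02 and 0.09 TPM with si-CENPU. The highest of the Huh-7 values was in the si-NC replicate 1 library that stood apart. TPM is scaled per transcript length, so the levels of the 3 cyclins can be set side by side. CCND3 made up 73% ± 3.7 (SD, n = 3) of the summed D cyclin TPM in MHCC-97H with si-NC and 74.4% ± 0.778 with si-CENPU. In Huh-7 its share was 92.4% ± 8.83 and 99.3% ± 0.553. The sum itself was 103.38 to 112.02 TPM and 88.8 to 103.44 TPM in the MHCC-97H groups, against 5.36 to 8.1 TPM over all Huh-7 libraries.

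CDK4, the main D cyclin kinase of many epithelial tumours, had the widest gap between the lines after CDKN2A. CDK4 (ENSG00000135446, chromosome 12: 57747727 to 57756013, minus strand) was at 487.58, 536.44 and 500.07 TPM with si-NC and at 524.68, 469.04 and 467.91 TPM after si-CENPU in MHCC-97H. In Huh-7 it was at 0.32 TPM in si-NC replicate 1 and listed at 0 in the other 5 libraries. These zeros share their libraries with the near-zero levels of CDK2, PCNA and COX7C given above. Of 818 genes with at least 100 TPM in every MHCC-97H library, 26 (3.18%) were under 0.5 TPM in every Huh-7 library, CDK4 and CDKN2A among them. The reverse held for 46 of 746 genes (6.17%). The processed pseudogene CDK4P1 was listed at 0 in every library.

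CDK6 (ENSG00000105810, chromosome 7: 92604921 to 92836594, minus strand), the second D cyclin kinase, was low in both lines. It stood at 0.08, 0.38 and 0.18 TPM with si-NC and at 0.17, 0.12 and 0.23 TPM with si-CENPU in Huh-7, and at 3.53, 2.26 and 1.18 against 1.98, 1.95 and 1.43 TPM in MHCC-97H. The siRNA groups overlapped in both lines. CDK4 made up 99.5% ± 0.244 (SD, n = 3) of the summed CDK4 and CDK6 TPM in MHCC-97H with si-NC and 99.6% ± 0.0555 with si-CENPU. In Huh-7 that sum did not exceed 0.4 TPM, and no share is read from it.

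**Figure D2:**
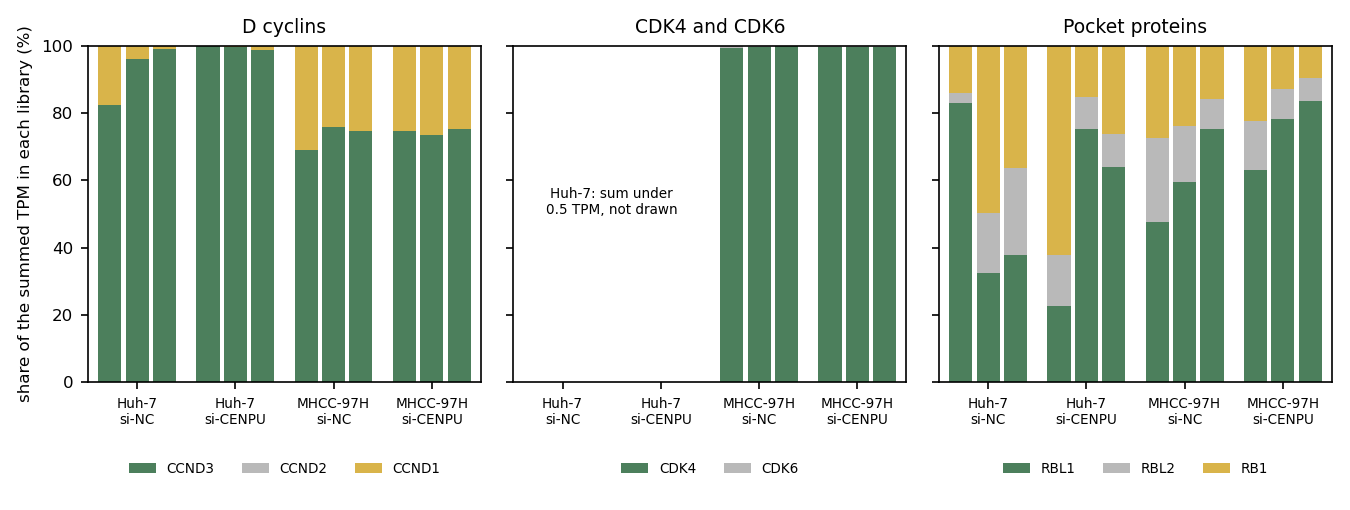
Share of the summed TPM (vertical axis, %) taken by each D cyclin, by CDK4 and CDK6, and by each pocket protein, with 1 bar per library grouped by line and siRNA. CCND3 takes the largest share of D cyclin TPM in all 12 bars, CDK4 takes at least 99.3% in MHCC-97H, and the pocket protein shares vary widely between libraries of a group.

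CDKN2A, which encodes the CDK4 and CDK6 inhibitor p16INK4a and, from a separate first exon, the protein ARF, was among the most abundant transcripts of MHCC-97H. CDKN2A (ENSG00000147889, chromosome 9: 21967753 to 21995301, minus strand) stood at 1094.04, 1234.19 and 1274.83 TPM with si-NC and at 1300.15, 1230.31 and 1175.36 TPM with si-CENPU. Its mean of 1218 TPM over that line lay above 98.8% of the tested genes. In Huh-7 the si-NC libraries were at 0, 0.06 and 0 TPM and the si-CENPU libraries at 0.14, 0.27 and 0.14 TPM, so the siRNA groups did not overlap there, at levels below 0.5 TPM. A value per gene joins the transcripts of both first exons, so p16INK4a and ARF cannot be told apart.

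CDKN1A (ENSG00000124762, chromosome 6: 36676460 to 36687339, plus strand), which encodes p21, was moderate in MHCC-97H and near 0 in Huh-7. The MHCC-97H levels were 5.43, 5.42 and 5.93 TPM with si-NC, against 4.94, 3.73 and 4.67 TPM after si-CENPU. Every si-CENPU library was below every si-NC library there. In Huh-7 it stood at 0.04, 0.06 and 0.09 TPM with si-NC and at 0.03, 0.15 and 0.33 TPM with si-CENPU, with overlap.

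Of the 3 pocket proteins RBL1 had the highest mean level in both lines. RBL1 (ENSG00000080839, chromosome 20: 36996349 to 37095995, minus strand) encodes p107, a pocket protein made in cycling cells and itself a known E2F target. Its promoter window is printed because it was the only one of 13 member windows with an E2F word. The 250 bases before its RefSeq start (GRCh38.p14, chr20:37095998-37096247, minus strand, 5′ to 3′) carry 2 such words, in capitals, whose first bases lie 26 and 16 bases before the start.

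RBL1: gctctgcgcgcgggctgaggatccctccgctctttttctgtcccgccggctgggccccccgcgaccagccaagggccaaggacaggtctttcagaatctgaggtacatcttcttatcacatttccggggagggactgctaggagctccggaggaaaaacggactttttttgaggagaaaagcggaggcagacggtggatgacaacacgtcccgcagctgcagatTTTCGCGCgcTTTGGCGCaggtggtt

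The words searched for E2F were TTTCCCGC, TTTCGCGC, TTTGCCGC and TTTGGCGC on both strands, and 979 of 35116 windows of the same length (2.79%) held at least 1. The table has windows for 8 of the 10 genes, and the only RB1 window (chr13:48476200-48476449) lies inside the gene, so the sequence before the RB1 start given below was not searched. The Sp1 word GGGCGG, on both strands, was in 6 of the 13 member windows (CCND3, CDK4, CDK6, CDKN1A and CDKN2A) and in 42.6% of all windows. A match describes the letters only.

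RBL1 stood at 2.26, 3.03 and 4.82 TPM with si-NC and at 3.47, 7.75 and 7.38 TPM after si-CENPU in MHCC-97H. In Huh-7 it stood at 1.6, 0.54 and 0.5 TPM with si-NC and at 0.3, 1.43 and 1.8 TPM with si-CENPU. The siRNA groups overlapped in both lines, and the spread within each group was wide. RB1 (ENSG00000139687, chromosome 13: 48303726 to 48599436, plus strand), the retinoblastoma protein, stood at 0.27, 0.83 and 0.48 against 0.82, 0.29 and 0.74 TPM in Huh-7. The MHCC-97H levels were 1.3, 1.22 and 1.01 TPM with si-NC, against 1.24, 1.29 and 0.84 TPM after si-CENPU. The siRNA groups overlapped in both lines, and the lines were separated by 0.01 TPM, between 0.83 and 0.84.

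A gene on the opposite strand lies inside RB1, the lysophosphatidic acid receptor LPAR6, and the strand setting of the quantification is not given in the sources used here. LPAR6 was at 0.57, 0.82, 0.78, 0.83, 0.28 and 0.74 TPM in the 6 Huh-7 libraries (si-NC first), which equalled RB1 to within 0.01 TPM in 4 of 6 libraries. It was listed at 0 in all MHCC-97H libraries. A TPM value per gene holds no reads, so whether RB1 and LPAR6 share reads was not tested. The RB1 level of Huh-7 carries that limit. RBL2 (ENSG00000103479, chromosome 16: 53433977 to 53491649, plus strand), which encodes p130, the pocket protein of resting cells, stood at 0.06, 0.3 and 0.34 against 0.2, 0.18 and 0.28 TPM in Huh-7. The MHCC-97H levels were 1.19, 0.84 and 0.58 TPM with si-NC, against 0.8, 0.87 and 0.61 TPM after si-CENPU. RBL2 shares 610 bases at its 3′ end with AKTIP on the other strand, which ran from 4990.95 to 7191.23 TPM in Huh-7 and from 0.36 to 1.35 TPM in MHCC-97H. The siRNA groups of RBL2 overlapped in both lines. RBL2 was the lower in the line where AKTIP was high, but all 9 detected members were lower in that line. The cause was not tested.

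RBL1 made up 60.8% ± 13.8 (SD, n = 3) of the summed pocket protein TPM in MHCC-97H with si-NC and 74.9% ± 10.7 with si-CENPU, and 51% ± 27.7 and 53.9% ± 27.6 in Huh-7. These shares differed by less than the spread of single groups in Huh-7, and by slightly more than 1 SD in MHCC-97H. In MHCC-97H the order of the line means was CDKN2A, CDK4, CCND3, CCND1, CDKN1A, RBL1, CDK6, RB1, RBL2 and CCND2. CDKN1A (3.73 to 5.93 TPM) and RBL1 (2.26 to 7.75 TPM) overlapped in that order, as did RBL1 with CDK6 (1.18 to 3.53 TPM), CDK6 with RB1 (0.84 to 1.3 TPM) and RB1 with RBL2 (0.58 to 1.19 TPM). In Huh-7, CCND3 (5.34 to 7.56 TPM) stood above every other member in every library, and the rest overlapped between 0 and 1.8 TPM.

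Knockdown of CENPU was the comparison the study was built on. None of the 7 tested members passed the test with si-CENPU in Huh-7, in MHCC-97H or in the difference between the responses of the lines, by limma on log2(TPM + 1) at a Benjamini-Hochberg adjusted p under 0.05 over 11088 genes. The adjusted p of the 7 tested members was 1 in each line and 0.999 for the difference of responses. Over all genes 1 was called in each of the 3 comparisons (0.00902%): MAP2K4, a stress kinase, in Huh-7 (1.79) and in the difference of responses (-2.10), and ADAM15 in MHCC-97H (0.77). At an unadjusted p under 0.05 there were 507, 379 and 383 genes, those called included, and each of these counts is below 5% of the genes tested. The tested members can be read by their intervals on the log2(TPM + 1) scale, which understates changes of low genes.

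**Figure D3:**
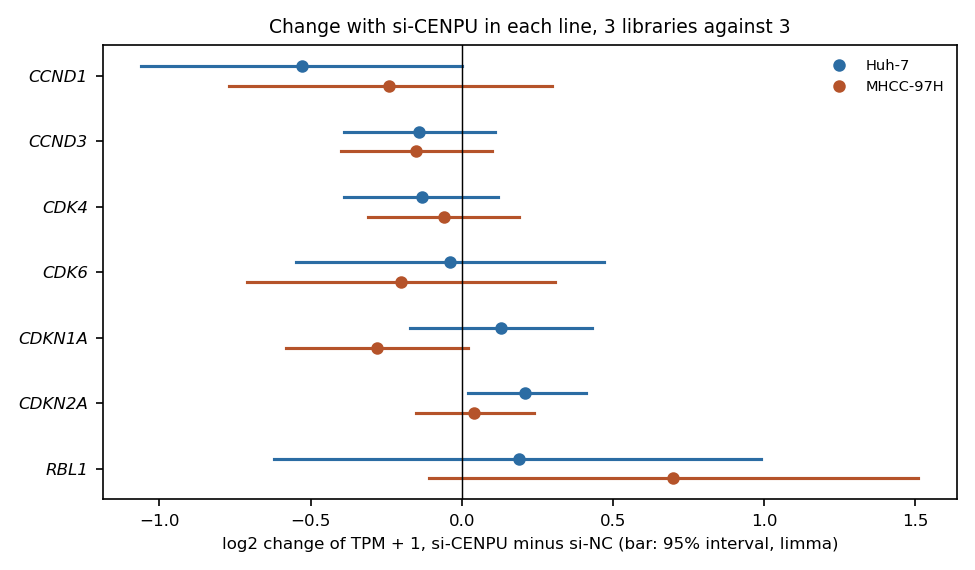
Difference of log2(TPM + 1) between si-CENPU and si-NC (horizontal axis) for the 7 tested members in Huh-7 and MHCC-97H, with 95% intervals from limma, 3 libraries against 3. The intervals cross 0 for 6 of the 7 genes in Huh-7, where CDKN2A runs from 0.02 to 0.41, and for all 7 in MHCC-97H.

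For the D cyclins, CCND3 differed by -0.14 (95% interval -0.39 to 0.11) in Huh-7 and by -0.15 (-0.40 to 0.10) in MHCC-97H, so its 2 estimates were nearly equal and changes of more than 0.40 in size lay outside both intervals. CCND1 differed by -0.24 (-0.77 to 0.30) in MHCC-97H. In Huh-7 it differed by -0.53 (-1.06 to 0.00, unadjusted p = 0.0511 by limma), a value that depends on 1 library and on the number added before the logarithm. It was -0.18 without si-NC replicate 1 and -1.78 with 0.1 in place of 1 (adjusted p = 0.735 by limma). Its unadjusted p was under 0.05 in 6 of 24 settings, with a lowest adjusted p of 0.71. The difference between the lines' CCND1 responses was 0.29 (-0.46 to 1.05).

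For the kinases, CDK4 in MHCC-97H differed by -0.06 (-0.31 to 0.19), and in Huh-7 its value of -0.13 rests on the 1 library that is not at 0. CDK6 differed by -0.04 (-0.55 to 0.47) in Huh-7 and by -0.20 (-0.71 to 0.31) in MHCC-97H. Neither kinase differed between siRNAs beyond its spread.

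Among the inhibitors, the estimates for CDKN1A had opposite signs in the lines. CDKN1A differed by -0.28 (-0.58 to 0.02, unadjusted p = 0.065 by limma) in MHCC-97H, which is 20.5% less TPM on average, and by 0.13 (-0.17 to 0.43) in Huh-7. The difference of responses was -0.41 (-0.84 to 0.02, unadjusted p = 0.0576, adjusted p = 0.999 by limma), which did not pass. CDKN2A differed by 0.04 (-0.15 to 0.24) in MHCC-97H and by 0.21 (0.02 to 0.41, unadjusted p = 0.0345, adjusted p = 1 by limma) in Huh-7. The Huh-7 value rests on levels of at most 0.27 TPM and depends on the number added before the logarithm: with 0.1 in place of 1 it was 1.25, with an adjusted p of 0.0819. Over the 24 settings the CDKN2A value in Huh-7 ran from 0.16 to 1.25. Its unadjusted p by limma was under 0.05 in 17 of them, and no adjusted p was below 0.0819. The settings reuse the same libraries. Non-overlapping siRNA groups were found for CDKN2A in Huh-7 and for CDKN1A in MHCC-97H, 1 of the 7 tested members in each line, where 7.65% and 6.95% of all tested genes had non-overlapping groups. With 7 genes, a share of 1 is not far from that background.

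For the pocket proteins, RBL1 had the largest estimate of the members in MHCC-97H, 0.70 (-0.11 to 1.51, unadjusted p = 0.0821 by limma), with a mean of 3.37 ± 1.31 TPM with si-NC and 6.2 ± 2.37 TPM with si-CENPU (SD, n = 3). In Huh-7 it differed by 0.19 (-0.62 to 0.99), and the difference of responses was 0.51 (-0.63 to 1.65). Leaving out single libraries moved the MHCC-97H value between 0.51 and 1.01. RB1 and RBL2, under the expression limit, were tested by exact two-sided permutation of 3 against 3 libraries, whose smallest p is 0.1. RB1 differed by 0.08 in Huh-7 and by -0.04 in MHCC-97H (exact p = 0.8 in each), and by 0.02 over both lines together (exact p = 0.895, adjusted p = 0.9 over 12 tests). RBL2 differed by -0.01 (exact p = 0.9) and by -0.08 (exact p = 0.7), and by -0.04 over both lines (exact p = 0.645, adjusted p = 0.9).

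Between the lines, every MHCC-97H library was above every Huh-7 library for all 9 detected members. The same held for 42.2% of the 11088 tested genes, for 21.5% of the 30267 genes above 0 in any library and for 30.7% of the 2349 genes averaging 0.5 to 1 TPM, the range of RB1 and RBL2. With trimmed-mean scaling or with quantile normalization, both added for this count after seeing the data, the count was 7 of 9, and RB1 and RBL1 then overlapped. In MHCC-97H the level of 5 of the 7 tested members (CCND1, CDK4, CDK6, CDKN1A and CDKN2A) alone brought them over the expression limit. The limit thereby fixed the direction of their line means, and no count over the tested members is read as a result. CCND3 and RBL1 averaged at least 1 TPM in both lines. In Huh-7 CCND3 averaged 6.7 TPM, but RBL1 only 1.03 TPM, and 0.88 TPM in the si-NC group.

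CCND3 was higher in MHCC-97H by 3.31 ± 0.112 (SE) on the log2 scale with si-NC (adjusted p = 2.36e-10 by limma) and by 3.30 ± 0.112 with si-CENPU (adjusted p = 2.43e-10). RBL1 was higher by 1.22 ± 0.366 with si-NC (adjusted p = 0.0104) and by 1.74 ± 0.366 with si-CENPU (adjusted p = 0.0013). The RBL1 call with si-NC was lost under trimmed-mean scaling (0.82, adjusted p = 0.11) and quantile normalization (0.91, adjusted p = 0.101). The 2 arms use separate libraries of the same lines. The knockdown and line comparisons share their libraries, so their values are set side by side and not correlated.

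The other tested members gave differences of 4.32 and 4.61 for CCND1, 1.40 and 1.24 for CDK6, 2.63 and 2.22 for CDKN1A with si-NC and si-CENPU, and 10.03 for CDKN2A with si-CENPU. In Huh-7 these genes averaged 0.323, 0.193, 0.117 and 0.102 TPM. The sizes of these differences therefore depend on the 1 added before the logarithm. No fold is given for CDK4, or for CDKN2A with si-NC, whose Huh-7 libraries include zeros. As a description only, all 7 tested members were called higher in MHCC-97H in each arm, where 73.0% and 70.1% of all tested genes were called, 50.1% and 46.2% of them in that direction out of all tested. RB1 and RBL2 differed by 0.46 and 0.56 over both arms (exact p = 0.005, the smallest possible, adjusted p = 0.03 over 12 tests). Those sizes are close to the median over all tested genes, which was 0.49 with si-NC and 0.40 with si-CENPU as deposited, and 0.00 and 0.01 after trimmed-mean scaling. After that scaling RB1 differed by 0.22 and RBL2 by 0.39, and the share of calls that were higher in MHCC-97H went from 68.6% to 49.4% with si-NC and from 65.9% to 49.4% with si-CENPU.

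The other genes of the pathway were described from 13 lists, in which 104 genes beside the members were in the table and 89 were tested. None was called with si-CENPU in either line, where 3 and 2 of the 89 had a higher and 3 and 4 a lower value at an unadjusted p under 0.05 in Huh-7 and MHCC-97H. The 89 had a median difference of 0.01 (Huh-7) and -0.06 (MHCC-97H), against 0.01 and -0.05 over all tested genes. Between the lines with si-NC, 67 of the 89 were called higher and 4 lower in MHCC-97H, where 50.1% of all tested genes were called higher, with a median of 1.04 against 0.49. With si-CENPU it was 63 and 4, where 46.2% of all tested genes were called higher, with a median of 0.96 against 0.40. Of the 89, 24 averaged under 1 TPM in Huh-7 and reached the expression limit only through MHCC-97H, and none the other way round, so the counts and medians of these lists between the lines are descriptions and carry no support.

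**Figure D4:**
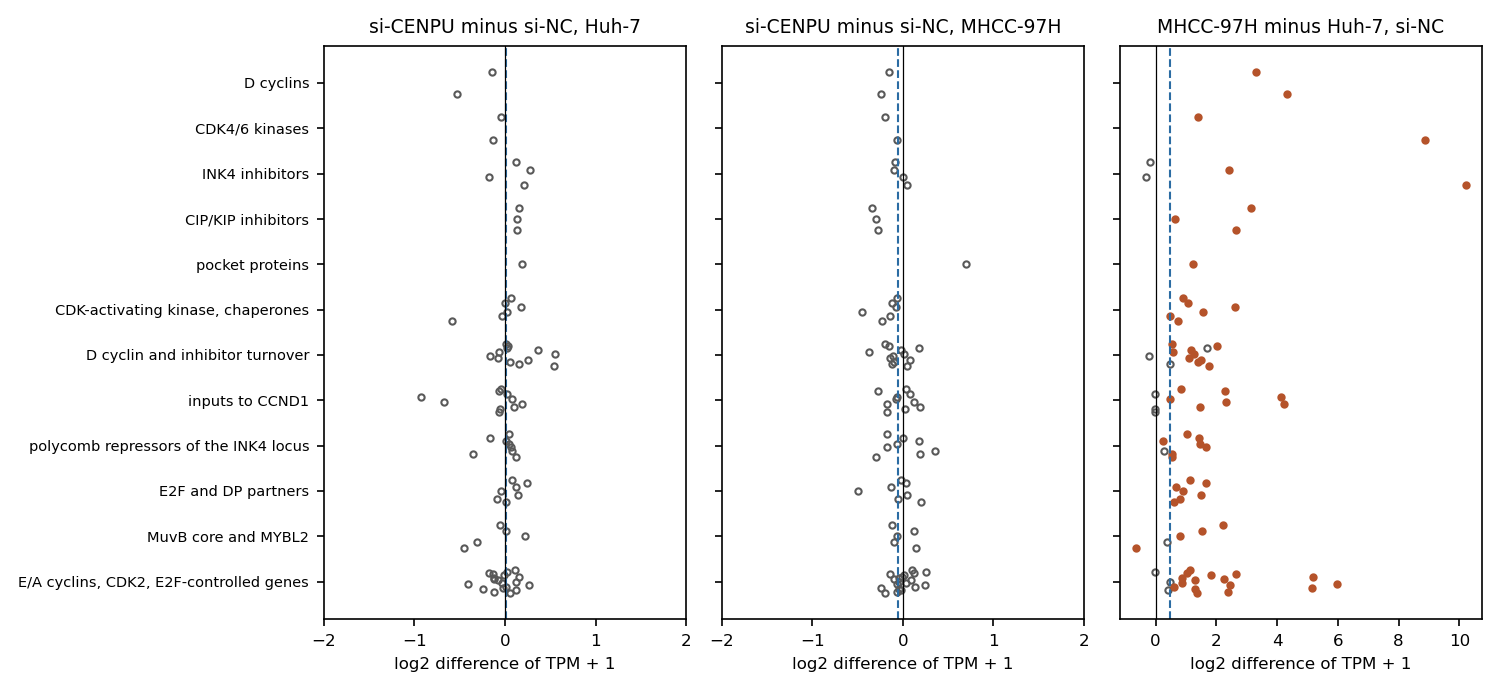
Difference of log2(TPM + 1) of each tested gene in 12 of the 13 lists (horizontal axes, 1 point per gene), for the siRNA comparison within Huh-7 and within MHCC-97H and for MHCC-97H minus Huh-7 with si-NC. Filled points passed the test, and the dashed line marks the median of all tested genes (0.01, -0.05 and 0.49). No point is filled in the first 2 panels, and most points of the third lie to the right of 0.

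Among the inhibitors outside the membership, CDKN1C (p57) and CDKN2C (p18INK4c) followed CDKN1A and CDKN2A in being higher in MHCC-97H. CDKN1C was at 1.28 to 2.17 TPM in Huh-7 and at 14.82 to 23.26 TPM in MHCC-97H, a difference of 3.15 with si-NC (adjusted p = 4.57e-09 by limma). CDKN2C differed by 2.43 (adjusted p = 1.04e-07), while CDKN2B, the neighbour of CDKN2A that encodes p15INK4b, did not pass at -0.31 (-0.72 to 0.10). CDKN1B (p27) was called higher with si-NC (0.63, adjusted p = 0.0332) and not with si-CENPU (0.20, adjusted p = 0.47), so 3 CIP/KIP genes were called in the first arm and 2 in the second. In those arms 50.1% and 46.2% of all tested genes were called higher. CDKN2B ran from 0.69 to 1.75 TPM in MHCC-97H and from 1.16 to 1.9 TPM in Huh-7. CDKN2D was called lower in MHCC-97H with si-CENPU alone, at -0.38 (adjusted p = 0.00689) against -0.17 with si-NC (adjusted p = 0.158), and the difference between the arms was not called at an adjusted p of 0.999. With si-CENPU in MHCC-97H all 3 CIP/KIP genes had values below 0, CDKN1C at -0.34 (unadjusted p = 0.0458), CDKN1B at -0.30 and CDKN1A at -0.28, and in Huh-7 all 3 had values above 0. None of the 3 passed the test. Of the 11088 tested genes, 6959 were below 0 in MHCC-97H and 5803 were above 0 in Huh-7, so these signs were the commoner ones.

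As background, polycomb proteins repress the INK4 locus in many cells. Of 9 polycomb genes 8 were tested. With si-NC 7 were called higher and none lower in MHCC-97H, where 50.1% of all tested genes were called higher. The median was 0.78 against 0.49 over all genes, and 3 of the 8 reached the limit only through MHCC-97H. RING1 (1.42, adjusted p = 8.88e-07 by limma), EED (1.66) and EZH2 (1.45) had the smallest p. In the comparison of siRNAs none of the 8 was called in either line, PHC2 having the smallest p in MHCC-97H (0.18, unadjusted p = 0.0485).

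Of 12 genes that act as inputs to CCND1, 10 were tested, and 7 were called higher and none lower in MHCC-97H in each arm. The shares of all tested genes called higher were 50.1% with si-NC and 46.2% with si-CENPU. The median of the 10 was 1.15 with si-NC, against 0.49 over all tested genes. JUN, FOS and TEAD1 reached the limit only through MHCC-97H, and CTNNB1, ETS2 and TCF7L2 did not pass, at -0.01, -0.03 and -0.02 with si-NC. FOSL1, an AP-1 subunit, ran from 1.11 to 2.27 TPM in Huh-7 and from 33.18 to 45.25 TPM in MHCC-97H (4.23, adjusted p = 4.67e-10 by limma), MYC from 0.3 to 5.75 and from 62.55 to 97.56 TPM (4.14, adjusted p = 1.68e-06), and TEAD1, a partner of YAP, from 0.17 to 0.34 and from 3.24 to 7.78 TPM. With si-CENPU in Huh-7, MYC differed by -0.93 (-1.77 to -0.09, unadjusted p = 0.0324, adjusted p = 1). JUN was at 3 TPM in the Huh-7 si-NC replicate 1 library and listed at 0 in the other 5, the same library that held the highest CCND1 and the 1 non-zero CDK4 of that line.

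The next lists hold genes that charge or clear the complexes. All 6 tested genes of the CDK-activating kinase and the kinase chaperones were called higher in each arm. Over all tested genes the shares called higher were 50.1% with si-NC and 46.2% with si-CENPU. The median of the 6 was 1.03 with si-CENPU, against 0.40 over all tested genes. With si-NC, HSP90AA1 was at 2.62 and CDK7 at 1.57 (adjusted p = 1.69e-05 and 0.000305 by limma). CDC37, the chaperone that loads CDK4 onto HSP90, ran from 42.78 to 52.43 TPM in Huh-7 and from 51.84 to 70.27 TPM in MHCC-97H. It was thus abundant in Huh-7, where the listed CDK4 values did not exceed 0.32 TPM. Of the 12 tested genes of D cyclin and inhibitor turnover, 9 were called higher and none lower with si-NC, and 7 and none with si-CENPU. GSK3B (1.68, adjusted p = 0.129), CKS1B (0.47, adjusted p = 0.0617) and DDB1 (-0.22, adjusted p = 0.258) did not pass with si-NC. In MHCC-97H, GSK3B stood at 5.01, 45.22 and 3.53 TPM with si-NC and at 52.82, 4.56 and 5.13 TPM with si-CENPU. In each of these groups 1 library stood far above the others, so its estimate is unstable. AMBRA1, the ubiquitin ligase receptor for D cyclins, ran from 0.36 to 1.89 TPM in Huh-7 and from 3.13 to 5.49 TPM in MHCC-97H, and it was 1 of 2 genes of this list that reached the limit only through MHCC-97H. With si-CENPU in Huh-7, AMBRA1 (0.54, unadjusted p = 0.0431) and DTL (0.55, unadjusted p = 0.0377) had values above 0 that did not pass the adjusted test.

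Downstream of the pocket proteins, all 7 tested E2F and DP genes were called higher in MHCC-97H with si-NC. Of all tested genes, 50.1% were called higher with si-NC and 46.2% with si-CENPU. The median of the 7 was 0.91, against 0.49 over all tested genes. TFDP1 was at 1.67 and E2F4, the partner of RBL1 and RBL2, at 1.49 (adjusted p = 2.17e-06 and 6.81e-06 by limma). E2F3, E2F5, E2F6 and TFDP2 reached the limit only through MHCC-97H, and with si-CENPU 5 of the 7 were called. Of the 5 tested DREAM partners 3 were called higher and LIN37 lower with si-NC (-0.64, adjusted p = 0.0049), and MYBL2 was at 1.53 (adjusted p = 9.17e-07). With si-CENPU the LIN37 call was lost (-0.04, adjusted p = 0.85), and 4 were called higher and none lower. LIN9 and LIN52 reached the limit only through MHCC-97H. Of the 19 tested E and A cyclin, CDK2 and E2F-controlled genes 16 were called higher and none lower with si-NC (median 1.30). Of the 19, 7 reached the limit only through MHCC-97H (CCNE1, CDK2, MCM2, MCM6, PCNA, RRM1 and POLA1), so the limit fixed the direction of their line means. By contrast TK1, also E2F-controlled, was at 123.31 to 135.73 TPM in Huh-7 and at 115.02 to 164.26 TPM in MHCC-97H (-0.01 with si-NC, adjusted p = 0.945). In the comparison of siRNAs none of the tested genes on these 3 lists was called in either line, TK1 having the smallest p in MHCC-97H (0.26, unadjusted p = 0.0118). E2F1, E2F7, E2F8, LIN54, CCNE2 and CCNA1 were under the expression limit and not tested, so nothing is said of their response.

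Likeness between genes was described by Pearson's r over the 12 libraries after the mean of each line was subtracted, so that it reflects differences between libraries of a line. The libraries share a table and its scaling, so no p is given. The pair of members with the highest r was CCND1 and CDK4 (0.82), both highest within Huh-7 in si-NC replicate 1. The lowest was CDK6 and RBL1 (-0.588). CCND1 was most like CLINT1 (0.968) and UBXN1 (0.954), CCND3 most like AGAP3 (0.946) and LLGL1 (0.918), and CDK4 most like FRG1HP (0.928) and ST3GAL1 (0.926). CDK6 was most like HAPSTR1 (0.972) and PRPF38B (0.967), CDKN1A most like PEF1 (0.872) and PIERCE1 (0.868), and CDKN2A most like STK11 (0.932) and MGMT (0.858). RBL1 was most like UBALD2 (0.84) and an unnamed gene (0.857), the lowest values of the 7.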

How the data were processed

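RNA sequencing values of 12 samples were used as the TPM that the authors deposited, 1 column per sample. HISAT2, StringTie and the build GRCh38.p13 are named without versions, per the submitters' processing notes. For the annotation release and the strand setting, nothing is stated in the sources used here. Columns summed to 998416 to 999065, and no 2 were identical. Groups and replicate numbers came from the sample titles. Symbols were matched for 60447 of 60664 identifiers, with coordinates from GENCODE release 29 and promoter windows from RefSeq (GRCh38.p14). Genes averaging at least 1 TPM were tested on log2(TPM + 1) with limma 3.58.1 in R 4.3.3, with 1 mean per group over all 12 samples, a variance trend and Benjamini-Hochberg adjustment per contrast. The fit was tested on simulated data. RB1 and RBL2 were tested by exact permutation. Named genes are the 10 members, CENPU, up to 3 genes with the smallest p per list and comparison, and the 2 most similar genes per tested member. COX7C, MT-CO2, LPAR6, AKTIP, CDC37, MAP2K4, ADAM15 and CDK4P1 were named after their values were seen. So were the markers APOB, FOXA2, KRT7, KRT19, SOX9, EPCAM, CD68, LYZ, CD3E and CD79A. The same holds for list genes named for not passing or for the expression limit, and for the library values of JUN and GSK3B. The members, lists and tests were chosen with earlier results of these data known. Alternatives changed the pseudocount, filter, scaling, samples fitted, block, trend and moderation, and left out each library. Of the lists, 1 is not reported here by gene.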

Additional observations from a re-analysis of the deposited data

How the results depend on the processing

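No member was called with si-CENPU under any alternative in either line, the lowest adjusted p being 0.0819 (CDKN2A, Huh-7, pseudocount 0.1). Of 316 alternative member values for the knockdown 5 changed sign, and of 151 for the difference of responses 13 did. Signs changed for CDK4 in MHCC-97H (0.02 with trimmed-mean scaling) and for the CCND3 difference of responses (0.01 with pseudocount 0.1, 0.11 with trimmed-mean scaling, 0.05 with quantile normalization and 0.01 with GC correction, an alternative chosen after seeing the data). Without single libraries, values ran from -0.12 to 0.05 (CDK6) and -0.03 to 0.52 (RBL1) in Huh-7, -0.47 to 0.06 (CDK6) and -0.02 to 0.09 (CDKN2A) in MHCC-97H, and -0.05 to 0.53 (CCND1), -0.11 to 0.04 (CCND3), -0.06 to 0.14 (CDK4) and -0.43 to 0.10 (CDK6) for the difference of responses. Between the lines all 7 tested members stayed called except RBL1 with si-NC, lost under trimmed-mean scaling (0.82) and quantile normalization (0.91), and 4 were tested and called in each arm at a mean of at least 5 TPM. CCND1, CDK4, CDK6, CDKN1A and CDKN2A reached the expression limit only through MHCC-97H, which fixed their direction. These counts are therefore descriptions and carry no support. Without the filter, limma gave p = 0.016 for RB1 and 0.00182 for RBL2 with si-NC, and 0.00399 for RBL2 with si-CENPU, which passed where the exact test of 3 against 3 could not; RB1 with si-CENPU did not pass (p = 0.051, adjusted p = 0.118).

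Counts over all genes, 1 in each knockdown comparison, were for Huh-7 11 (pseudocount 0.1), 4 (no filter), 0 (mean of at least 5), 2 (trimmed-mean), 3 (quantile), 0 (only the groups compared), 3 (GC correction) and 0 to 4 without single libraries. For MHCC-97H they were 0 (pseudocount 0.1, only the groups compared, no trend), 7 (no filter), 3 (trimmed-mean), 7 (quantile), 8 (GC correction) and 0 to 4. For the difference of responses they were 0 (pseudocounts 0.1 and 0.5, mean of at least 5), 6 (no filter), 2 (trimmed-mean) and 0 to 4. Between the lines a mean of at least 5 left 4405 (si-NC) and 4282 (si-CENPU). With the replicate number as a block the counts were 0 in MHCC-97H and 0 for the difference of responses, and no member was called; same-numbered samples correlated at -0.0914 to 0.134, so the numbers were not treated as pairs. The causes were not tested.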
